A study of Mus musculus with 6 samples.

Results

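The regions described here are the 11125 places in the MIN6 genome where MafA was found inside a gene body, away from both gene ends and away from the histone mark H3K4me3. They make up 43% of the 25894 MafA regions shared by both MafA libraries. They were chosen by measured values: a MafA region was the union of overlapping peaks with at least 1 peak from each MafA library, no peak of either H3K4me3 library was allowed to touch it, and its midpoint had to lie inside a RefSeq gene and more than 1 kb from every gene end. Their being unmarked and their presence in both MafA libraries are therefore properties of the choice and not results. The other MafA regions comprised 6942 unmarked regions between genes, 1199 unmarked regions within 1 kb of a gene end and 6628 regions that overlapped an H3K4me3 peak.

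MafA is a basic leucine zipper protein of the large MAF family and a transcription factor of mature beta cells, where it is known as an activator of the insulin genes. Large MAF proteins bind a palindromic MAF recognition element or its single arm, the half-site TGCTGA. H3K4me3, trimethylation of lysine at the tail of histone H3, is the mark typical of active promoters, and regulatory elements far from promoters usually carry little of it. Many such distal elements lie within the transcribed span of a gene, and a position inside a gene does not show which gene an element acts on.

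The study profiled endogenous MafA by CUT&RUN in MIN6, a mouse insulinoma line used as a model of beta cells, with 500000 cells per library. In CUT&RUN an antibody directs a nuclease to the protein in permeabilised cells and the released fragments are sequenced. There were 6 libraries in 3 groups of 2: MafA antibody, an H3K4me3 antibody as the positive control, and IgG as the negative control. All groups came from the same line, and no treatment or genotype besides the antibody is named. MIN6 is a tumour-derived line, and no source says that the 2 libraries of a group came from separate cultures. The spread between these libraries may therefore be technical. With 2 libraries, the exact sign permutation used below shows only whether both differed in the same direction, and its p-value does not measure that spread. The IgG libraries were not analysed here. To check the line against its label, a gene was called marked at an end if H3K4me3 regions reached within 1 kb of it. Of 12 beta cell marker genes 10 were marked, all but Ins1 and G6pc2. Among markers of other islet cells 4 of 9 were, among acinar and duct markers 0 of 8, and among immune and endothelial markers only Cd68 of 8. Across all 19304 protein-coding genes over 2 kb, 61.5% had the mark at an end.

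A small number of the gene-body regions overlapped the promoter window of an annotated transcript start, and these are the places where the sequence under MafA can be shown. Of the 11125 regions, 70 overlapped one of the 32851 RefSeq promoter windows, each 300 bases from 250 before to 50 after a transcript start, and 29 had the summit of a MafA peak inside one. The 5 windows printed next were picked after their values were seen. Each starts more than 5 kb from every gene end, overlaps no H3K4me3 peak and holds a summit. Other windows also met these conditions and are not printed, among them those in 1700019D03Rik and Cmip, which held no half-site. The 5 therefore do not show how often a half-site occurs, and the shares are given further on. They are RefSeq sequences of GRCm38.p6, written 5′ to 3′ on the strand of the gene, with every TGCTGA and its reverse complement TCAGCA in capitals.

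Maml2, chr9:13662210-13662509, plus strand: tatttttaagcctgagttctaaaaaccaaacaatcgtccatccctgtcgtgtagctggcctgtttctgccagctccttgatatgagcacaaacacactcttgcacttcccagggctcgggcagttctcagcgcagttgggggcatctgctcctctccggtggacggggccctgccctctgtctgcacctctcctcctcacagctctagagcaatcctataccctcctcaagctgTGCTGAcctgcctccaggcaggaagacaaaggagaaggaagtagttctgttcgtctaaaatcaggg
Fam118a, chr15:85042475-85042774, plus strand: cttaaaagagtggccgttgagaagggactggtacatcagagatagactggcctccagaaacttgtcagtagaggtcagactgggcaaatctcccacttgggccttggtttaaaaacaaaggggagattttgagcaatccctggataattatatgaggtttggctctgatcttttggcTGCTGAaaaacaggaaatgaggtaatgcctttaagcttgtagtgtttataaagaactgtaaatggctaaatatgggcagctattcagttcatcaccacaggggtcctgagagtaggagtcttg
Cep126, chr9:8123615-8123914, minus strand: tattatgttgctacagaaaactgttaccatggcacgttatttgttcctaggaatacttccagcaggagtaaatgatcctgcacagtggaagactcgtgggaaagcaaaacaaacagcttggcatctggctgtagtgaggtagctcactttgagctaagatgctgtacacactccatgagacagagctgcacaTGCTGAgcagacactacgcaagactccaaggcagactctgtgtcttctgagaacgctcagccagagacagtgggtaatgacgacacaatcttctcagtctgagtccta
Tmcc3, chr10:94550622-94550921, plus strand: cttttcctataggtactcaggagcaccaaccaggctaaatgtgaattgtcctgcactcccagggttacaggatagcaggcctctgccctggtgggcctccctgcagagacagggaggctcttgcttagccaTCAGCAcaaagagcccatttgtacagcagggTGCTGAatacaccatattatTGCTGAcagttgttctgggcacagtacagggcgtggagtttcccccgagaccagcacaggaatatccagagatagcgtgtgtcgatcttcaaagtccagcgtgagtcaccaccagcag
Rfx6, chr10:51685268-51685567, plus strand: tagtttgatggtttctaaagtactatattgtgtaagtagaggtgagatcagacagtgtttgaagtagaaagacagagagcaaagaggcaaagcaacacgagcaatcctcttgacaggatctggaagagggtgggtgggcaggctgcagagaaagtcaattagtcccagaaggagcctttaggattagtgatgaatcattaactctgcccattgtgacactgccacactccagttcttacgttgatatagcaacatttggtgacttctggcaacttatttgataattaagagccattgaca

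The Maml2 window, 366 kb into a gene for a coactivator of Notch signalling, had 1 half-site, and its MafA region had a fold enrichment of 11.5 in replicate 1 and 12.3 in replicate 2. Fold enrichment is the authors' ratio of the fragment pileup at the summit to the local background. The Fam118a window held 1 half-site, with fold enrichments of 8.92 and 11.9, and the Cep126 window held 1, with 10.7 and 13.7. The Tmcc3 window held 3 half-sites, and its region had the lowest mean of the 5, at 5.99 and 7.07. The window in Rfx6, which encodes a transcription factor of islet development, held none, and its region had 11.9 in replicate 1 and 4.82 in replicate 2.

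Among promoter windows more than 1 kb from every gene end and free of H3K4me3, 32 of the 80 that overlapped a gene-body region held TGCTGA on either strand, against 712 of the 3036 that overlapped none (23.5%). Across all 32851 windows the share was 19.5%. Of the 32 windows of any position that held a summit of a gene-body region, 14 had the half-site (43.8%). Several windows overlap one another where a gene has neighbouring starts, so they are not independent, and no test was made. The sequence of gene-body regions outside promoter windows was not examined here.

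Most gene-body regions were modest peaks, with a thin upper tail of very strong ones. The median fold enrichment was 5.82 in replicate 1 (quartiles 4.54 and 8.01, range 1.95 to 61.9) and 6.37 in replicate 2 (quartiles 4.77 and 8.92, range 1.96 to 73.8). The median summit carried 25 fragments in replicate 1 and 51 in replicate 2, and the median local background was 3.47 and 5.0. Both were recovered from the deposited fold enrichments and p-values. Fragments are counted before the scaling factor of the library, 0.746 in replicate 2, and the background is given after it. In replicate 2 the fragments and the background are therefore on different scales. A fold enrichment of at least 10 in both libraries was reached by 1390 gene-body regions, or 12.5%. The share was 11.6% over all 25894 MafA regions, 13.2% for the intergenic regions, 14.5% for unmarked regions at gene ends and 7.82% for regions that overlapped an H3K4me3 peak, whose median background was 11.2 and 18.

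Since every region needed overlapping peaks of both libraries, closeness of the replicates' summits is in part set by the choice. The summits of the 2 libraries were a median of 62 bp apart, and 61.5% were within 100 bp, against 62.6% for intergenic regions, 66.0% for unmarked regions at gene ends and 72.8% for regions overlapping an H3K4me3 peak. Across the 11125 regions, Spearman's rho between replicates was 0.730 for fold enrichment and 0.873 for fragments, given as a description because regions share libraries and background. For fold enrichment it was 0.739, 0.763 and 0.818 in the other 3 classes in the same order, so gene-body regions had the lowest value of the 4 classes. Replicate 2 had the higher fold enrichment at 6911 regions (62.1%). The median region was 914 bp long (quartiles 687 and 1246), and 96.7% were made of 1 peak from each library.

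Many peaks of single libraries fell outside the gene-body regions. A peak was left out if it had no partner or if its shared region fell in another class. These cases were not counted apart. Replicate 1 alone had 14852 unmarked gene-body peaks, of which 77.0% fell in a shared gene-body region, and replicate 2 alone had 18492, of which 60.4% did. The peaks left out were weaker, with median fold enrichments of 4.2 and 4.14 against 5.78 and 6.35 for the peaks that were kept.

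The strongest gene-body region lay in the lncRNA gene Gm31374 (chr9:46350020-46351690), with a fold enrichment of 61.9 in replicate 1 and 73.8 in replicate 2, and with 383 and 871 fragments at the summits. Its host is only 2.35 kb long, so this region sits 1167 bp from a gene end and just qualifies as internal. The next lay in Dpp6 (chr5:27348167-27349739), which encodes an auxiliary subunit of potassium channels, 532 kb from the 5′ end of a 910 kb gene, at 49.9 and 65.0. A region in Lrrfip2 (chr9:111147230-111150007) had 40.9 and 58.3. A region in Vac14 (chr8:110704930-110706374), whose product scaffolds a lipid kinase complex of endosomes, had 42.6 and 49.6. All 4 stood far above the upper quartile of the gene-body regions in both libraries.

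The rest of the leading 12 by mean rank ranged from 32.8 to 39.8 in replicate 1 and from 39.6 to 49.7 in replicate 2. They lay in Ces1d, a carboxylesterase (39.8 and 45.6); Lifr, the receptor subunit for leukaemia inhibitory factor (38.7 and 44.7); Rnf212b (34.5 and 49.7); and Nceh1, a cholesterol ester hydrolase (36.8 and 41.9). The others lay in Scnn1b, a subunit of the epithelial sodium channel (39.0 and 39.6), the lncRNA gene 4930568G15Rik (36.0 and 41.6), Mrps27, a mitochondrial ribosomal protein (33.6 and 43.8), and Lypd6b (32.8 and 42.7). All 12 were higher in replicate 2, as were 62.1% of all gene-body regions. Of the 12, 11 had summits within 50 bp of each other, where the median over all gene-body regions was 62 bp. H3K4me3 lay at an end of 6 of the 12 hosts, 10 of which are protein-coding. Of all regions in protein-coding genes, 78.5% had a host with the mark. None of the 12 hosts belongs to the beta cell transcription factor, channel or secretory lists described further on. Those lists held only 79, 114 and 119 of the 11125 regions, so few of any 12 would be on them. The channel subunit genes Dpp6 and Scnn1b were not put on the channel list.

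**Figure D1:**
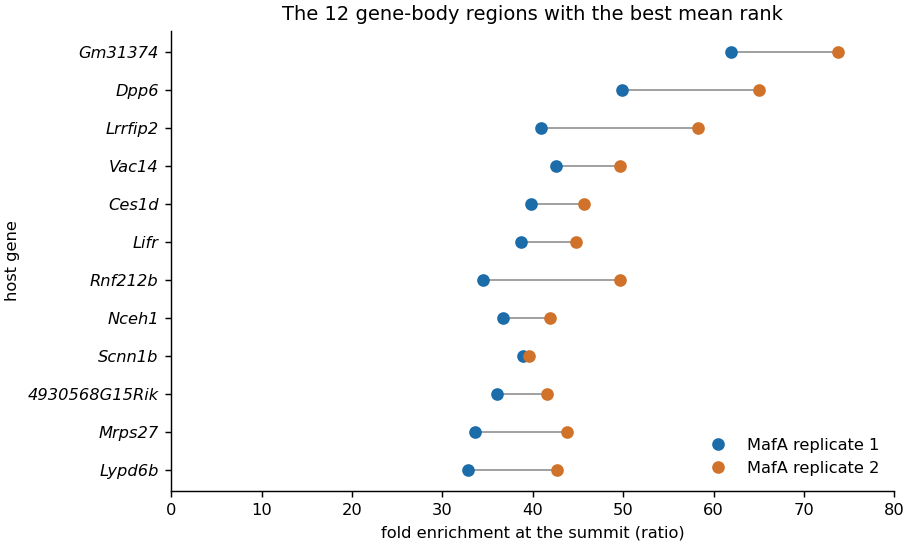
Fold enrichment at the summit (horizontal axis, ratio) of the 12 gene-body regions with the best mean rank, named by host gene, in MafA replicate 1 (blue) and replicate 2 (orange), joined by a line. Replicate 2 is to the right in all 12, and the region in Gm31374 stands highest, at 61.9 and 73.8.

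At the other end, the last regions by rank were in Glis3 (chr19:28454310-28454731, 2.27 and 2.27) and in the lncRNA gene Gm36897 (chr6:136468561-136469011, 2.27 and 2.10). As ratios, the largest differences between replicates were in Pcsk2, the prohormone convertase of the beta cell granule (3.77 and 15.9), in Mllt3 (2.88 and 10.9), and in the neural factor gene Myt1l (9.05 and 2.53). At the 1 kb limit, the members just inside lay 1001 bp (in Gm33577, 8.83 and 11.8) and 1003 bp (in Gca, 5.47 and 3.61) from a gene end. The regions just outside lay at 998 bp (5.86 and 8.44) and 1000 bp (4.88 and 4.37).

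Gene-body regions were about as strong as other unmarked MafA regions. Against intergenic regions, the median log2 fold enrichment differed by −0.030 in replicate 1 and −0.016 in replicate 2 (mean −0.023 ± 0.0099, SD, n = 2 libraries, gene body minus intergenic; exact sign permutation p = 0.5, two-sided, the smallest that 2 libraries allow). Against unmarked regions at gene ends it differed by 0.0094 and 0.019 (mean 0.014 ± 0.0069, SD, n = 2; exact sign permutation p = 0.5), and that sign turned to −0.044 when the peaks' −log10 p replaced the fold enrichment. The median peak was 1 bp wider than intergenic peaks in replicate 1 (655 against 654 bp) and 2 bp wider in replicate 2 (838 against 836 bp; exact sign permutation p = 0.5 over n = 2 libraries). All these log2 differences are smaller than that between the gene-body medians of the 2 libraries, which were 2.54 and 2.67 on the log2 scale.

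**Figure D2:**
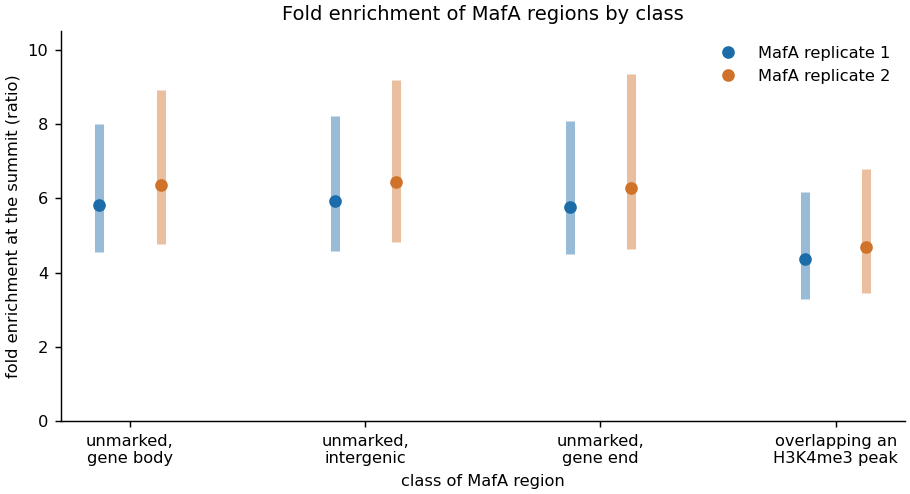
Fold enrichment at the summit (vertical axis, ratio) of MafA regions in 4 classes, for replicate 1 (blue) and replicate 2 (orange); points are medians over regions and bars span the quartiles. Gene-body medians of 5.82 and 6.37 sit beside 5.94 and 6.44 for intergenic regions, and regions overlapping an H3K4me3 peak are lower at 4.38 and 4.68.

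Gene-body regions were spread over many genes, and long genes held most of them. A protein-coding gene contained 9770 of the 11125 regions (87.8%), and 1309 lay in lncRNA genes only. Of the 19304 protein-coding genes over 2 kb, 3795 held at least 1 region, which is 19.7%. Among these, 1958 held 1, 1297 held 2 to 4, 391 held 5 to 9, and 149 held 10 or more. The 149 contained 2022 regions. The median gene that held a region was 86.3 kb long, against 16.1 kb for genes that held none. Unmarked MafA regions were inside gene bodies in 57.7% of cases (11125 of 19266; Wilson 95% interval 57.0 to 58.4%, counting error only).

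Genes whose ends carried H3K4me3 held more internal MafA regions than genes without the mark. The choice of regions did not use the mark at the host's ends, although the same H3K4me3 lists removed marked stretches from both sides of this comparison. Of 11871 genes with a marked end, 2870 held a gene-body region (24.2%), and of 7433 genes without one, 925 did (12.4%). Counted per megabase of eligible gene body, replicate 1 had 15.9 unmarked MafA peaks in genes with a marked end, 9.11 in genes with none and 6.98 between genes. Replicate 2 had 19.9, 11.2 and 8.75. The ratio of marked to unmarked genes was 1.75 in replicate 1 and 1.78 in replicate 2, a mean log2 ratio of 0.82 ± 0.020 (SD, n = 2 libraries; exact sign permutation p = 0.5, which cannot be lower here). Both libraries were higher in marked genes. The SD covers only these 2 libraries, whose spread may be technical, and holds no known variation between cultures. The ratio of genes without the mark to intergenic sequence was 1.30 and 1.28. Assembly gaps and sequence where reads cannot be placed were not removed from any of these lengths, and their part in the ratios was not tested. The median fold enrichment of the regions was 5.82 and 6.38 in marked hosts and 5.80 and 6.23 in hosts without the mark, and the median background was 3.47 and 5.0 against 3.29 and 5.0.

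Marked genes had the higher density in each of the 7 length classes, and their density rose with length up to 500 kb. For regions of both libraries, genes of 2 to 10 kb had 4.09 regions per Mb with the mark and 3.70 without. Genes of 50 to 100 kb had 12.2 and 6.71, genes of 200 to 500 kb had 15.2 and 8.06, and genes over 500 kb had 9.37 and 6.13. In short marked genes all eligible sequence lies close to an end, where regions touching H3K4me3 were left out by the choice. Their values are therefore partly set by it, and its part in the rise with length was not tested. In terms of genes, 86.9% of marked and 61.8% of unmarked genes of 200 to 500 kb held at least 1 region, against 1.19% and 1.09% of genes of 2 to 10 kb. Restricted to genes of 100 kb or more, the mean log2 ratio of peak density was 0.81.

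Position along the gene is given as a description, with no test. Only protein-coding genes of known strand enter it. A marked gene may carry H3K4me3 at either end, so its 5′ end need not be the marked one. In marked genes the density was 4.57 regions per Mb at 1 to 5 kb from the 5′ end, 9.70 at 5 to 10 kb, 12.4 at 20 to 50 kb and 14.0 at 100 to 200 kb. In genes without the mark it was 5.42, 6.10, 6.45 and 7.76 over the same spans. Sequence under H3K4me3 peaks was left out of all spans, but a region whose edge touched such a peak was also left out by the choice, so the values nearest marked ends are partly set by it. With each gene divided into 10 equal parts from its 5′ end, marked genes ranged from 10.3 regions per Mb in part 1 to 14.4 in part 4, and unmarked genes from 5.24 in part 2 to 9.94 in part 9. Among the 7622 regions in protein-coding genes of known strand, the median distance from the 5′ end was 70.3 kb (quartiles 26.4 and 182 kb).

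**Figure D3:**
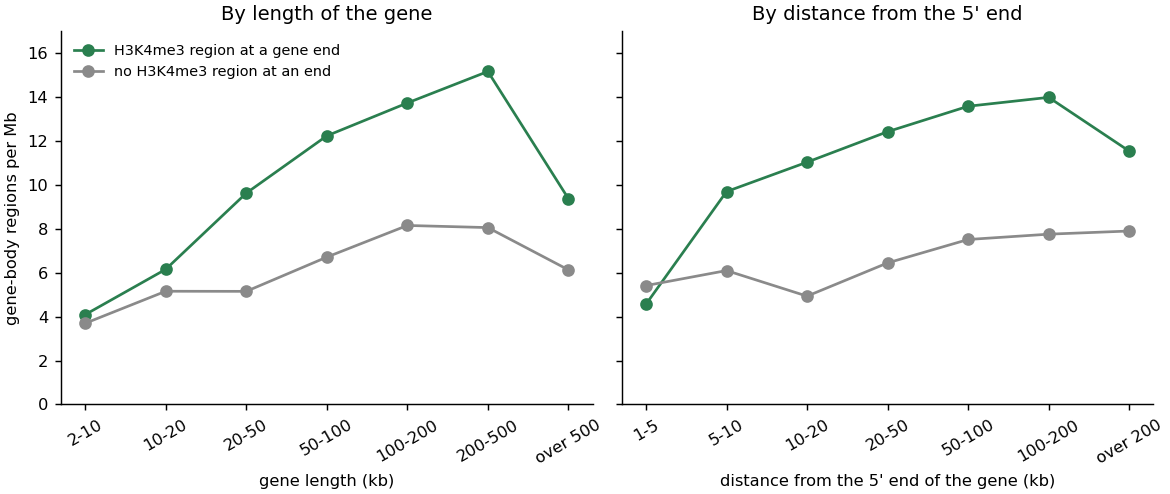
Gene-body regions per megabase of eligible gene body (vertical axes) by length of the host gene (left) and by distance from its 5′ end (right), both in kb, for genes with H3K4me3 at an end (green) and without (grey); each point is 1 value from the regions shared by both libraries. The green line rises from 4.09 to 15.2 regions per Mb before falling to 9.37 in genes over 500 kb. The point at 1 to 5 kb from the 5′ end and the points of short marked genes are partly set by the choice of regions. The right panel holds only genes of known strand, and the mark may lie at either end.

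Gene-body regions had shorter median spacings than intergenic ones, which was not tested further. The nearest other gene-body region was a median of 19.5 kb away, and 3907 regions (35.1%) had one within 10 kb. Intergenic regions were a median of 36.5 kb from the next, and 26.6% had one within 10 kb. The nearest H3K4me3 peak was a median of 44.4 kb away for gene-body regions and 71.8 kb for intergenic ones. The density of these regions per Mb was also higher inside genes (12.0 with a marked end, 6.73 without, 5.26 between genes), and its part in the spacing was not tested.

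Snd1, a gene for an RNA-binding nuclease-domain protein, held the most regions, 27 in 455 kb. Their fold enrichments in replicate 1 ran from 3.04 to 32.1 around a median of 4.99, and in replicate 2 from 3.36 to 41.1 around 5.52. A pair stood far above the rest, at 57.6 kb (32.1 and 32.3) and 385 kb (30.9 and 41.1) from the 5′ end. Agap1, a GTPase activator of membrane traffic, held 26 in 440 kb, of which 7 reached a fold enrichment of 10 in both libraries, and 4 of these lay between 251 and 296 kb from the 5′ end. Arhgap26 held 25, the acid-sensing channel gene Asic2 24, the calmodulin-binding factor gene Camta1 24, the cAMP phosphodiesterase gene Pde4d 24 and Auts2 21. In each of these 5 the median region was between 5.05 and 6.73 in both libraries, near the median over all gene-body regions, and the strongest reached 16.4 or more.

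Glis3, which encodes a zinc finger factor of beta cell development, also held 21 regions, but these were weak as ratios and strong as counts. Their median fold enrichment was 2.95 and 3.16, and none reached 10 in both libraries. Their median summit carried 58 fragments over a background of 17.5 in replicate 1 and 135 over 26.0 in replicate 2. The replicate 2 background is again the value after scaling. The median gene-body region had a background of 3.47 and 5.0. The neighbouring gene Rfx3 had its strongest region at a background of 41.1 and 61.3. The part of the high local background in the number of regions called there was not tested.

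**Figure D4:**
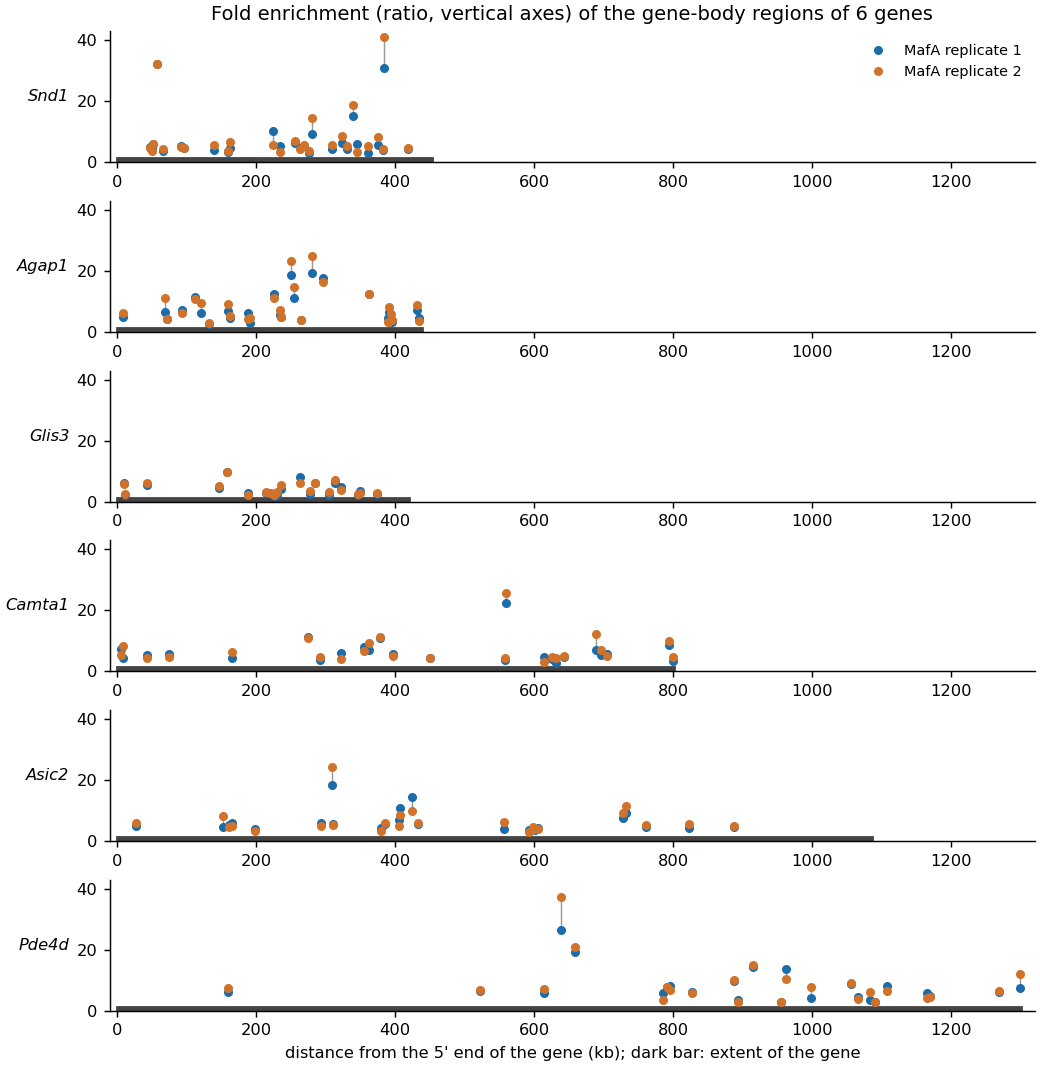
Fold enrichment (vertical axes, ratio) of every gene-body region against its distance from the 5′ end (horizontal axis, kb) in 6 of the genes with most regions, for replicate 1 (blue) and replicate 2 (orange); dark bars show the extent of each gene. Snd1 has a pair of regions above 30, while no region of Glis3 exceeds 9.91.

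Per length, shorter genes led among those with at least 4 regions. Gosr2, a SNARE of the Golgi, held 5 regions in 20.9 kb, or 24.0 per 100 kb, with fold enrichments between 3.55 and 7.96. Abcc8, the sulfonylurea receptor subunit of the beta cell potassium channel, held 15 in 75.5 kb (19.9 per 100 kb), and 6 of them reached a fold enrichment of 10 in both libraries. Syt13, a synaptotagmin, held 7 in 41.0 kb, with medians of 8.36 and 8.40. Tmigd1 held 4 in 25.5 kb and Ddx31 held 10 in 65.2 kb.

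The gene lists that follow were drawn up with earlier results of these data known, several genes stand on 2 lists, and long genes hold more regions, so the counts are descriptions. The reference is 19.7% of all protein-coding genes over 2 kb holding a region, 10.3 regions per Mb of their bodies and a median strongest region of 7.40 (mean of both libraries).

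Of 32 transcription factors of beta cells, 15 held a gene-body region, 79 regions in all, at 18.6 per Mb. Meis2, a homeodomain factor, had the strongest, at 24.5 and 27.5 (chr2:116018424-116021015). Bach2, a bZIP repressor, held 14 regions, the strongest at 16.8 and 18.5. Rfx3 held 13 (15.4 and 17.2), and Esrrg, an orphan nuclear receptor, held 3 (11.5 and 14.5). Without Glis3 and Rfx3, the list's genes on chromosome 19 with the high background, 45 regions were left at 12.5 per Mb, a value computed after seeing the data. The factors that held none included Pdx1, Nkx6-1, Nkx2-2, Neurod1, Mafa and Isl1, which are all under 20 kb long and have H3K4me3 at an end. In all, 11 of the 17 factors without a region were under 20 kb long.

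Of 34 genes for glucose sensing and ion channels, 22 held a region, at 15.0 per Mb. Trpm3, a cation channel, had one at 19.7 and 21.5. Cacna1c and Cacna1d, the pore subunits of L-type calcium channels, had their strongest at 18 and 18.9 and at 13.4 and 16.9, and Cacna1c held 15 in all. The strongest in Abcc8 was at 16.1 and 18.1 (chr7:46155215-46156623). Slc2a2, the glucose transporter, held 4 regions in 30.5 kb, while Kcnj11, the pore subunit partner of Abcc8, held none in its 3.83 kb.

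Of 41 genes of the secretory granule and exocytosis over 2 kb, 26 held a region, at 16.7 per Mb, and the median strongest region was 12.7. The sorting receptor gene Sorl1 had one at 21.2 and 24.2, Vps13c one at 18.6 and 23.3, and Sorcs1 one at 17.5 and 19.7. Cpe, the carboxypeptidase that trims prohormones, held 8, the strongest at 17 and 22.3 (chr8:64628884-64630592). Pcsk2 held 13 and Slc30a8, the zinc transporter of the granule, held 1, with a mean fold enrichment of 16.4. The 15 genes without a region included Chga, Chgb, Pcsk1 and Iapp.

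Of 35 genes for receptors and second messenger signalling, 24 held a region, at 16.8 per Mb. Pde4d had the strongest, at 26.4 and 37.3 (chr13:109292555-109294213), 639 kb into the gene. Dgkb, a diacylglycerol kinase, had one at 19.1 and 22.3, the phosphodiesterase gene Pde10a one at 13.1 and 22.6, and the adenylyl cyclase gene Adcy8 one at 12.0 and 12.5. Glp1r, the receptor for the incretin GLP-1, held 1 region with a mean of 4.44, and Insr and Gipr held none.

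Of 38 genes named for type 2 diabetes loci, 29 held a region, at 16.4 per Mb. Glis3, with its high local background, gave 21 of the 141 regions of this list. The density without it was not computed. The receptor phosphatase gene Ptprd had its strongest at 22.5 and 20.8, lower in replicate 2, and Ankrd55 had one at 17 and 22.8. Cdkal1 held 13 regions, Jazf1 9 and Fto 3, while Tcf7l2 held none in 192 kb. This list shares Vps13c, Dgkb, Glis3, Slc30a8 and others with the lists before it.

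Of 47 genes for cell adhesion and synaptic proteins, 43 held a region, at 8.08 per Mb against 10.3 for all genes. Their median length was 1023 kb. Among all protein-coding genes over 500 kb, those with a marked end had 9.37 regions per Mb and those without had 6.13. A region was held by 94.6% and 73.4% of these long genes, in the same order. The part of length in the values of the list was not tested. The strongest was the Dpp6 region already described, followed by regions in Robo2, a guidance receptor (24.2 and 28.9), Opcml (22.3 and 27.3) and Rbfox1, a splicing factor (22.6 and 26.4).

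Of 40 genes typical of other tissues, 14 held a region, at 3.20 per Mb, and 6 of the 40 had H3K4me3 at an end. Without Dmd, its longest gene, the density was 5.31 per Mb, a value computed after seeing the data. A few were strong all the same. Alb, serum albumin of liver, held a region at 17.8 and 26.2 (chr5:90466512-90468440), Neb of skeletal muscle one at 12.7 and 14.8, Cftr one at 11.6 and 10.4, and Mbp of myelin one at 8.70 and 8.88. Dmd, at 2390 kb the longest on the list, held none in either library; it lies on the X chromosome, where gene-body regions were sparse throughout (3.19 per Mb).

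Each library taken alone placed the 5 lists of beta cell and diabetes genes above all genes. They had 19.9 to 22.8 unmarked gene-body peaks per Mb in replicate 1 and 22.8 to 32.6 in replicate 2, against 13.7 and 17.1 for all protein-coding genes. Without Glis3 and Rfx3, the transcription factors had 16.4 and 24.7. Glis3 also stands on the diabetes list, whose values without it were not computed. Adhesion and synaptic genes had 11.4 and 13.4, and genes typical of other tissues 3.20 and 6.90, or 5.31 and 11.5 without Dmd. The 5 lists also differ from all genes in mark and length. In list order, 28 of 32, 26 of 34, 39 of 41, 27 of 35 and 31 of 38 genes had H3K4me3 at an end. The share of all genes was 61.5%. Median lengths ran from 57.1 to 172 kb, against 21.3 kb. All marked protein-coding genes of 50 to 100 kb had 12.2 regions per Mb, and those of 200 to 500 kb had 15.2. The part of mark and length was not tested. No spread over samples other than these 2 libraries is available, and no test was made on the lists.

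**Figure D5:**
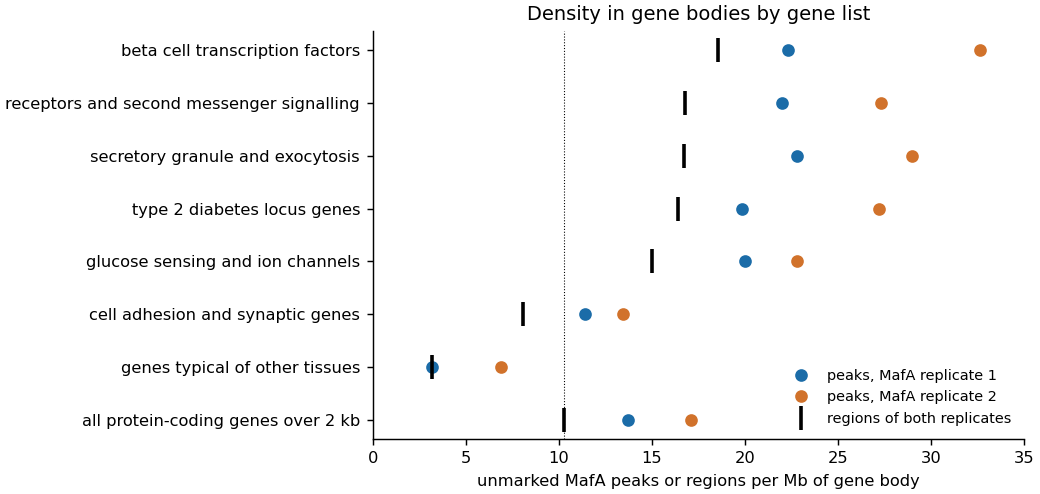
Unmarked MafA peaks or regions per megabase of gene body (horizontal axis) for 7 gene lists and for all protein-coding genes over 2 kb; blue and orange points are the peaks of replicates 1 and 2, black ticks the regions of both, and the dotted line is the value of 10.3 for all genes. The 5 lists of beta cell and diabetes genes lie between 15.0 and 18.6 regions per Mb, and genes typical of other tissues at 3.20 (5.31 without Dmd). The highest value, of the transcription factors, is 12.5 without Glis3 and Rfx3. Glis3 also stands on the diabetes list, whose value without it was not computed.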

How the data were processed

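CUT&RUN peak lists of 2 MafA and 2 H3K4me3 libraries were used. Per the submitters' processing notes, the tools named include MACS2 and the builds GRCm38 and mm10; the aligner, the MACS2 version, its settings and the control sample are not given in the sources used here. The authors deposited, for each peak, a fold enrichment (ratio) at the summit, a −log10 p and a −log10 q, and the lowest −log10 q was 2.00 to 2.04 in every list. The display score deposited by the authors was not used. Total read depth is unknown, since the lists hold only peaks (33013 and 42747 for MafA, 16020 and 16904 for H3K4me3).

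Regions were the union of peaks of both libraries that overlapped by at least 1 bp. Summit fragments and local background were recovered from fold enrichment and p, for 100% of peaks within a relative tolerance of 0.0001. A scaling factor of 0.746 for replicate 2 was found from these values. Fragments are given before this factor and the background after it. Genes, starts and promoter windows came from RefSeq tables of GRCm38.p6, which give no exons, so exon, intron and UTR positions were not analysed here. Densities counted midpoints per Mb of gene body more than 1 kb from gene ends and outside H3K4me3 peaks, on a 100 bp grid, in genes over 2 kb. Assembly gaps were not left out, and genes and intergenic sequence were not matched for how well reads can be placed.

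Classes were compared within each library with an exact sign permutation over the 2 libraries, which pairs the classes by library because they come from the same libraries; its smallest p is 0.5. The scripts were tested on simulated data. The members and gene lists were chosen with earlier results of these data known. The genes named are the hosts of the 12 regions of best mean rank and of the last 2, the 4 genes of each list with the strongest region, the 8 genes with most regions, the 5 with most per 100 kb among those with 4 or more, the 3 regions that differed most between replicates, and the regions at the 1 kb limit; other genes named in the list paragraphs were chosen after their values were seen. Alternatives covered the peak threshold, equal list lengths, the overlap, the definition of marked, the distance from gene ends, the gene set, gene length, the measure of strength and leaving out each library. Python 3.11.15, pandas 2.3.3, numpy 2.4.6 and scipy 1.17.1 were used.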

Additional observations from a re-analysis of the deposited data

How the results depend on the processing

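The density ratio of genes with a marked end over genes without one kept its direction in every alternative run, with mean log2 values from 0.77 to 0.88; the lowest came from leaving out chromosomes 19 and X, an alternative chosen after seeing the data. The difference of fold enrichment from intergenic regions stayed below 0 throughout, from −0.052 to −0.013. The difference from gene ends turned to −0.0057 with a −log10 q of at least 5, to −0.017 with equal numbers of MafA peaks and to −0.044 with −log10 p as the measure; the cause was not tested. The difference of width from intergenic peaks turned to −0.5 bp with a −log10 q of at least 5, −1 bp with equal numbers of peaks, −7.25 bp with a 50% reciprocal overlap and −1 bp with protein-coding genes only, and ran from −4 to 4 bp when 1 library was left out, −4 being without MafA replicate 1; the cause was not tested. The number of gene-body regions ran from 11179 to 18492 when 1 library was left out, the highest being replicate 2 alone, where no second MafA library was required. The share of unmarked regions inside gene bodies was 47.5% with a distance of more than 5 kb and 52.1% with protein-coding genes only, both narrower definitions of a gene body. Without pairing by library (no replicate block), the values remained −0.023, 0.014, 1.5 bp and 0.82, with exact permutation p of 0.667 for the first 3 and 0.333 for the density. Neither reaches a threshold, since 2 libraries allow no p under 0.333 in this form, so stability cannot be read from these p-values. The half-site comparison at summits was not run, and the 50% reciprocal overlap gives no density, which uses the peaks of single libraries.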

Other observations

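The density of gene-body regions on chromosomes 19 and X lay outside the range of the other chromosomes. Chromosome 19 had 14.1 regions per Mb of eligible gene body, with median fold enrichments of 5.16 and 5.43 over median backgrounds of 4.33 and 7.0 at the regions of the 2 libraries. Chromosome X had 3.19 per Mb, with higher fold enrichments (6.88 and 7.90) over lower backgrounds (1.91 and 2.61). The other chromosomes had 8.70 to 12.3 per Mb. Intergenic regions moved the same way, with 7.42 per Mb on chromosome 19 and 1.39 on X. The part of the background in these densities was not tested.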
